A study of Mus musculus with 16 samples.

Results

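The genes described here encode 7 matricellular and provisional matrix proteins, namely Spp1, Thbs1, Fn1, Tgfbi, Ecm1, F13a1 and Vcan. They were taken by gene symbol from a table of read counts that lists 20200 genes, and all 7 were present in it and passed the filter on low values. The counts come from bulk RNA sequencing of myeloid cells sorted from the tissue around a tendon graft in mice. Male wild-type C57BL/6 mice had the anterior cruciate ligament of the right knee reconstructed (ACLR) with a flexor digitorum longus tendon passed through bone tunnels, and the interface tissue between graft and bone was collected and digested on day 1 or day 14 after surgery. All mice were operated, and the labels name no transgene or drug, so the data hold no unoperated level of these genes. The 4 populations were all CD45+ and negative for other lineages. CD9+ macrophages were Ly6G-, CD11b+, F4/80+ and CD9+, and the rare cells that also carried CX3CR1 fell into this gate. CX3CR1+ macrophages were Ly6G-, CD11b+, F4/80+, CX3CR1+ and CD9-. F4/80- myeloid cells were Ly6G-, CD11b+ and F4/80-, and neutrophils were Ly6G+ and Ly6C+. Each population had 2 libraries on each day, 16 in all, and each library was a pool of several mice, so the spread between replicates is that between pools. The populations of a day may have been sorted from the same pools, which the labels do not state.

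Provisional matrix is the temporary scaffold laid down in a wound before it is replaced by collagen. Plasma proteins and cell-made fibronectin build it, and coagulation factor XIII cross-links it. Matricellular proteins sit in this matrix and act on cells through integrins, CD44, CD36 and CD47 rather than by carrying load. Macrophages make several of these proteins, and in a healing tendon graft the fibrovascular interface tissue forms within such a scaffold before bone grows into it.

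The members lie on 5 chromosomes of the mm10 build, and the counts sum reads over all exons of each protein-coding gene. Fn1 lies on the minus strand at chr1:71585520-71653200, Thbs1 on the plus strand at chr2:118111876-118127133, and Ecm1 on the minus strand at chr3:95734147-95739569. Spp1 lies on the plus strand at chr5:104435118-104441050. Chromosome 13 carries F13a1 on the minus strand at chr13:36867178-37050244, Tgfbi on the plus strand at chr13:56609523-56639562 and Vcan on the minus strand at chr13:89655312-89742509. Gene counts do not tell apart the spliced forms of Fn1, Spp1 or Vcan. Spp1 shares 309 exonic bases on its own strand with Gm42793, whose counts came to 0.320% of those of Spp1, and the other overlapping genes in the table held at most 0.0245% of the counts of the member they overlap.

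Spp1 and Ecm1 were the 2 members called higher in CD9+ macrophages than in each of the other populations on day 14, and the 250 bases upstream of their starts are shown for that reason, from the RefSeq promoter table of the GRCm38.p6 build. The table has an entry for 5 of the 7 members. Capitals mark the motifs found by searching both strands for TATAAA (the core promoter element bound by TBP), TGAGTCA (the AP-1 motif) and GAGGAA (the core of the PU.1 motif), which do not overlap each other here.
Spp1, chr5:104434861-104435110, plus strand: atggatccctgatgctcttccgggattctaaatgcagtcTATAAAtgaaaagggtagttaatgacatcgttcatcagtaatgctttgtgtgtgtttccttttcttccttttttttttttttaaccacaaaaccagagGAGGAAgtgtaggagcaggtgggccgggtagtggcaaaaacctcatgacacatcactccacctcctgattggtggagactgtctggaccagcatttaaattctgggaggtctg
Ecm1, chr3:95739570-95739819, minus strand: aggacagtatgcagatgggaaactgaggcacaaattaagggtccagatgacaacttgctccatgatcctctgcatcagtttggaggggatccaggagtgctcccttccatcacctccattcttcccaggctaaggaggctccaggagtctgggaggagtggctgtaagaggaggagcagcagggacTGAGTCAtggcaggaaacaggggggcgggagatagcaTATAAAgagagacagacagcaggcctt
The Spp1 stretch held TATAAA 211 bases and GAGGAA 113 bases before the start. Another start of Spp1 is listed, whose window held none of these motifs and is not shown. The Ecm1 stretch held TGAGTCA 64 bases and TATAAA 27 bases before the start. Of all 32851 windows of 300 bases in the table, 13.6% held TATAAA, 5.20% held TGAGTCA and 28.3% held GAGGAA. These windows are longer than the stretches shown, as they run 50 bases past the start. A match is a description of letters only and does not show that a protein binds there.

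Total counts lay between 9233952 and 19814119 per library, and the lowest count of a member was 22 reads, for Vcan in a day 14 neutrophil library. Levels below are CPM, the counts per library total on a common scale, corrected by the trimmed mean of M values (TMM). The genes of the sorting antibodies followed the gates in part. Mean Cx3cr1 was 142 CPM on day 1 and 278 CPM on day 14 in CX3CR1+ macrophages against 81.8 and 92.3 CPM in CD9+ macrophages, while mean Cd9 was 146 and 162 CPM in CD9+ macrophages and 20.01 and 6.68 CPM in CX3CR1+ macrophages. Cd9 was not particular to the CD9+ gate, with 109 and 120 CPM in F4/80- myeloid cells and 644 and 341 CPM in neutrophils. The 2 libraries of CD9+ macrophages on day 1 correlated less (Pearson's r across genes 0.936) than the pairs of the other 7 groups (0.976 to 0.988). Markers of other cells were present in the CD9+ and F4/80- libraries. A list of 14 neutrophil markers summed to 19207 and 6028 CPM on day 1 and 22080 and 14747 CPM on day 14 in CD9+ macrophages. It summed to 35978 to 47308 CPM in F4/80- myeloid cells, 745 to 1274 CPM in CX3CR1+ macrophages and 52151 to 116030 CPM in neutrophils. A list of 9 basophil and mast cell markers summed to 1462 to 2378 CPM in F4/80- myeloid cells and 156 to 604 CPM in CD9+ macrophages. That list lay at 4.94 to 10.5 CPM in CX3CR1+ macrophages and 1118 to 1342 CPM in neutrophils. A list of 9 eosinophil markers rose in CD9+ macrophages from 747 and 767 CPM to 7371 and 11925 CPM, and lay between 36.2 and 179 CPM in the other libraries. Of its genes, 8 of 9 were called higher in CD9+ macrophages on day 14, where 4.74% of all genes tested were. Mean Adgre1, which encodes F4/80, was 137 and 180 CPM in CD9+ macrophages and 180 and 157 CPM in CX3CR1+ macrophages on days 1 and 14, against 11.2 and 9.27 CPM in F4/80- myeloid cells. Neutrophils held mean Ly6g of 98.3 and 272 CPM. Markers also shifted in CX3CR1+ macrophages, where C1qb went from 160 and 126 to 12.9 and 11.6 CPM and S100a8 from 321 and 281 to 22.8 and 40.6 CPM. The sum of 12 macrophage markers rose there, from 9239 and 9573 to 10574 and 11361 CPM. In CD9+ macrophages C1qb was at 102 and 123 CPM on day 1 and 106 and 183 CPM on day 14. The part of these shifts in the changes of the members was not tested.

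The 7 genes together took a large share of the read counts of macrophages on day 1. They held 2.64% and 3.39% of all counts in CD9+ macrophages and 2.65% to 2.87% in CX3CR1+ macrophages on day 1, against 0.752% to 0.881% in neutrophils and 0.402% to 0.427% in F4/80- myeloid cells. On day 14 the share was 1.65% to 1.72% in CX3CR1+ macrophages and 0.665% to 0.818% in CD9+ macrophages. Neutrophils held 0.573% to 0.645% and F4/80- myeloid cells 0.247% to 0.278% on that day. In each population both day 14 libraries had a lower share than both day 1 libraries. In bulk samples fewer cells of a type and less RNA per cell cannot be told apart.

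**Figure D1:**
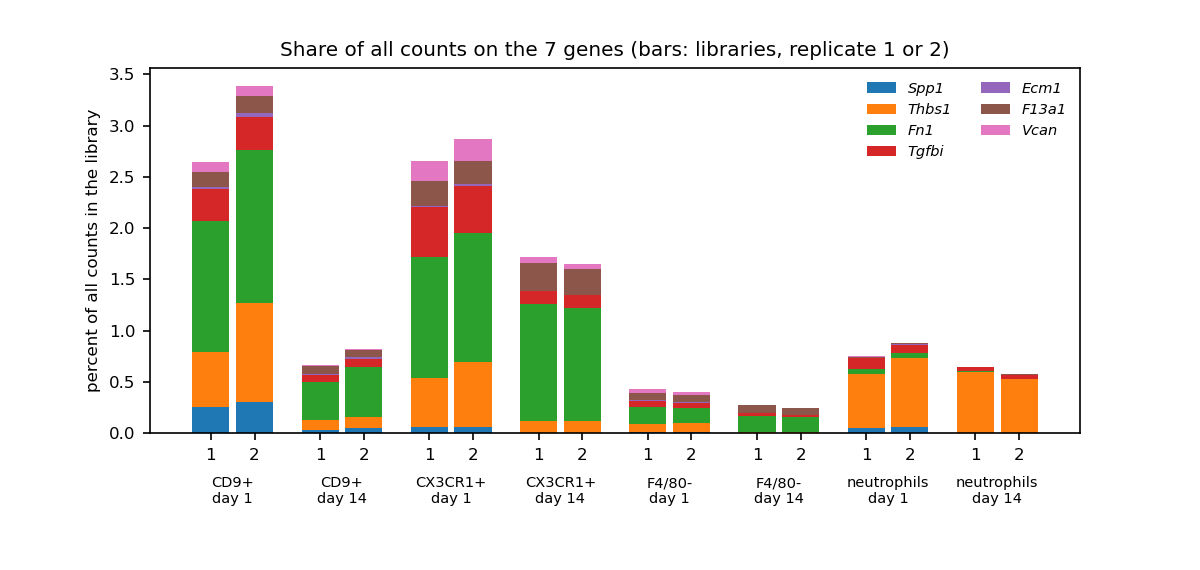
Share of all counts (percent) held by each of the 7 genes, stacked, in each of the 16 libraries, grouped by population and day. The 7 genes held 2.64% to 3.39% of counts in day 1 macrophages and 0.247% to 1.72% in the day 14 libraries.

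Per kilobase of exon, the leading member differed between the groups. The length used was that of all annotated exons of a gene, over all its transcripts. Genes with many forms can stand too low on this scale, so it compares different genes only roughly. In CD9+ macrophages on day 1, Spp1 led with a mean of 1775 CPM per kb, before Thbs1 with 1301, Fn1 with 1236 and Tgfbi with 867 CPM per kb. Thbs1 and Fn1 changed order between the libraries, at 873 and 1078 in replicate 1 and 1729 and 1395 CPM per kb in replicate 2. F13a1, Ecm1 and Vcan followed with 240, 132 and 69.6 CPM per kb. In CX3CR1+ macrophages on day 14, Fn1 led with 889 CPM per kb, before F13a1 with 359, Tgfbi with 315 and Thbs1 with 183 CPM per kb. Spp1 was at 10.9 and Ecm1 at 4.91 CPM per kb there. In neutrophils on day 14, Thbs1 stood at 1177 CPM per kb and the next member, Tgfbi, at 135 CPM per kb.

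**Figure D2:**
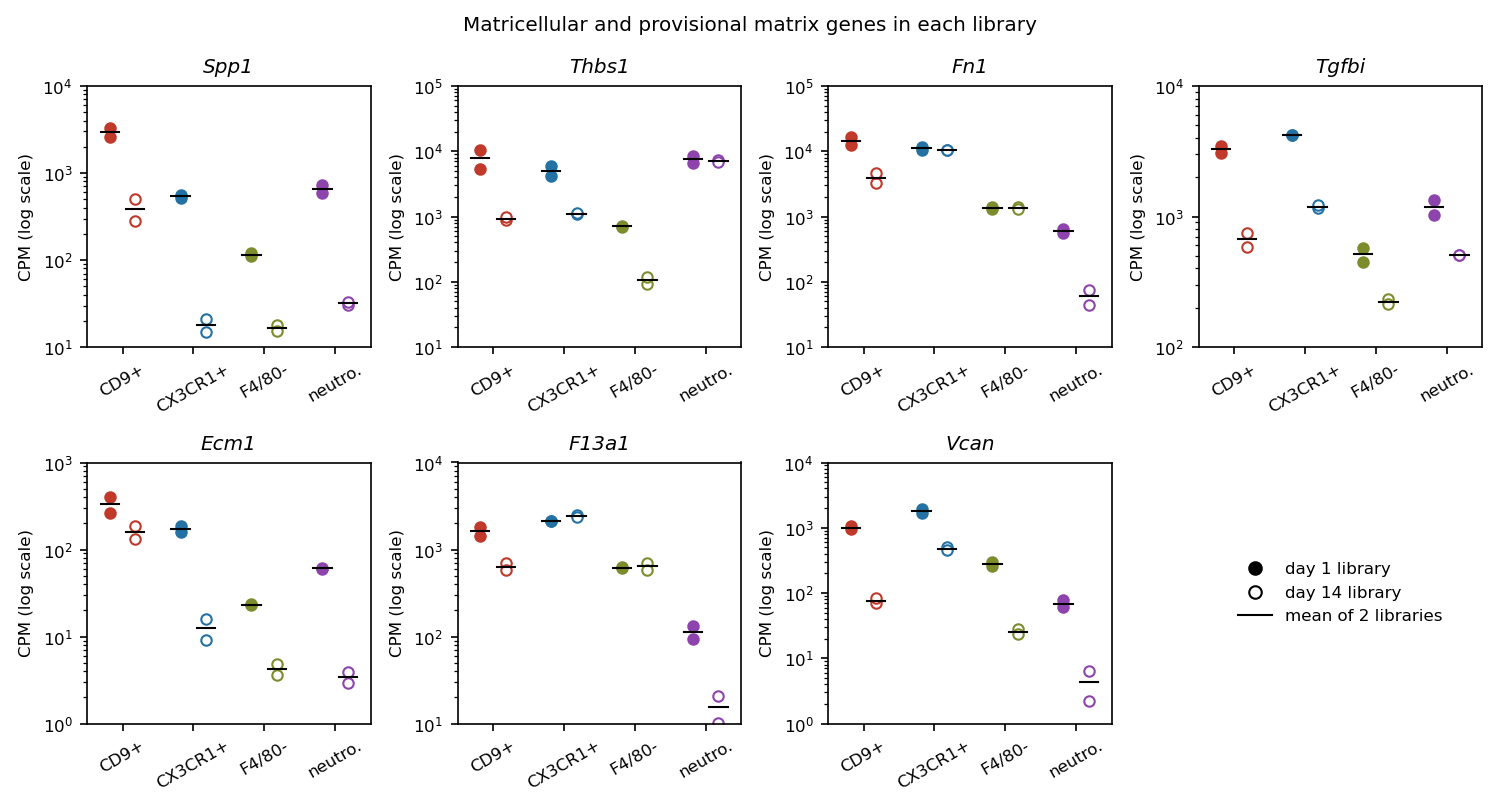
Level of each of the 7 genes in CPM on a log axis, with 1 point per library and a bar at the mean of the 2 libraries of each population and day. Fn1 in CX3CR1+ macrophages stayed at 10376 to 11593 CPM, Thbs1 in neutrophils at 6685 to 8460 CPM, and Spp1 in CX3CR1+ macrophages lay at 514 and 565 CPM on day 1 and at 15.1 and 21.0 CPM on day 14.

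The first question is how each population changed between day 1 and day 14. All 7 genes fell in CD9+ macrophages, 6 fell in neutrophils and 5 fell in each of CX3CR1+ macrophages and F4/80- myeloid cells, and none rose in any population. Tests were made with edgeR by quasi-likelihood over 12031 genes, and a gene counts as called, risen or fallen where its Benjamini-Hochberg adjusted p was under 0.05 and its log2 fold change reached 1 in either direction. Of all genes tested, 3.42% were called lower in CD9+ macrophages, 3.46% in CX3CR1+ macrophages, 2.18% in F4/80- myeloid cells and 10.5% in neutrophils, and 4.74%, 2.44%, 1.13% and 3.75% were called higher. The median log2 fold change of the 7 genes was -2.29 in CD9+ macrophages, -1.92 in CX3CR1+ macrophages, -2.45 in F4/80- myeloid cells and -3.34 in neutrophils, beside medians of 0.016, 0.040, 0.0078 and 0.032 over all genes. The genes that did not pass were Fn1 and F13a1 in CX3CR1+ macrophages and in F4/80- myeloid cells, and Thbs1 in neutrophils. An exact permutation test of 2 against 2 libraries cannot go below p = 0.333, so each call rests on the spread that the model pools over the 8 groups. The 2 libraries of CD9+ macrophages on day 1 were the least alike (r = 0.936). The pooled spread, and the SE and intervals from it, can therefore be too small for comparisons that use them.

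**Figure D3:**
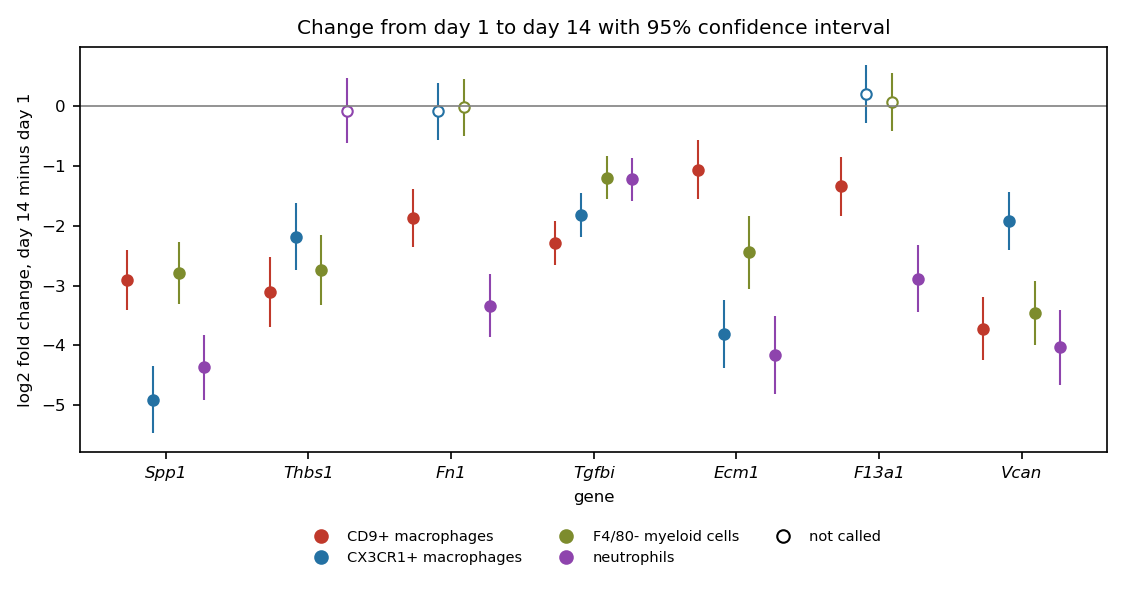
Log2 fold change of day 14 over day 1 for each of the 7 genes in each population, with bars for the 95% confidence interval of the edgeR fit. Values reach from -4.90 (Spp1 in CX3CR1+ macrophages) to 0.20 (F13a1 in CX3CR1+ macrophages), and the intervals of Fn1 and F13a1 in CX3CR1+ macrophages and F4/80- myeloid cells and of Thbs1 in neutrophils span 0.

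Fn1 encodes fibronectin, the cell-adhesive glycoprotein on which much of the provisional matrix is built. In CD9+ macrophages its level was 12595 and 16296 CPM on day 1 and 3321 and 4568 CPM on day 14. In CX3CR1+ macrophages it was 10467 and 11593 CPM on day 1 and 10376 and 10401 CPM on day 14. Both macrophage groups therefore started high, and on day 14 the CD9+ libraries lay below all others of the macrophages. Among F4/80- myeloid cells, the libraries held 1403 and 1308 CPM on day 1 and 1388 and 1282 CPM on day 14, with overlapping groups. Neutrophils held 651 and 553 CPM on day 1 and 75.6 and 43.8 CPM on day 14. Fn1 fell 3.66-fold in CD9+ macrophages (log2 fold change -1.87, SE 0.23, adjusted p = 8.85e-05) and 10.1-fold in neutrophils (-3.34, SE 0.25, adjusted p = 1.81e-07). The 95% interval of its log2 fold change was -0.56 to 0.39 in CX3CR1+ macrophages and -0.50 to 0.45 in F4/80- myeloid cells.

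F13a1 encodes the catalytic subunit of factor XIII, the transglutaminase that cross-links fibrin and fibronectin. Its level in CX3CR1+ macrophages was 2114 and 2108 CPM on day 1 and 2479 and 2355 CPM on day 14. In CD9+ macrophages it was 1419 and 1817 CPM on day 1 and 694 and 581 CPM on day 14. Both CD9+ libraries were lower on day 14 than on day 1, while both CX3CR1+ libraries of day 14 lay slightly above those of day 1. The F4/80- libraries held 623 and 614 CPM on day 1 and 706 and 589 CPM on day 14. Neutrophils held 131 and 94.6 CPM on day 1 and 20.6 and 10.2 CPM on day 14. F13a1 fell 2.54-fold in CD9+ macrophages (log2 fold change -1.34, SE 0.23, adjusted p = 0.00116) and 7.38-fold in neutrophils (-2.88, SE 0.26, adjusted p = 1.15e-06). The 95% interval was -0.28 to 0.67 in CX3CR1+ macrophages and -0.41 to 0.55 in F4/80- myeloid cells. Across the 16 libraries, log2 levels of F13a1 and Fn1 correlated with r = 0.963, a description over libraries that share days and populations.

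Spp1 encodes osteopontin, a phosphorylated glycoprotein that binds integrins and CD44 and is also deposited in bone. In CD9+ macrophages its level was 2567 and 3282 CPM on day 1 and 284 and 497 CPM on day 14. In CX3CR1+ macrophages it was 514 and 565 CPM on day 1 and 15.1 and 21.0 CPM on day 14. Both CD9+ libraries of day 14 lay below the CX3CR1+ libraries of day 1 and far above those of day 14. F4/80- myeloid cells held 110 and 121 CPM on day 1 and 17.9 and 15.5 CPM on day 14. Neutrophils held 588 and 723 CPM on day 1 and 30.7 and 32.8 CPM on day 14. No day 14 library overlapped the day 1 libraries of its population. Spp1 fell 7.496-fold in CD9+ macrophages (log2 fold change -2.91, SE 0.23, adjusted p = 2.18e-06) and 29.9-fold in CX3CR1+ macrophages (-4.90, SE 0.26, adjusted p = 4.22e-08). It fell 6.93-fold in F4/80- myeloid cells and 20.6-fold in neutrophils, with adjusted p of 9.84e-06 and 2.06e-08.

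Ecm1 encodes extracellular matrix protein 1, a secreted glycoprotein that binds other matrix proteins and has been linked to latent TGF-beta. Its level in CD9+ macrophages was 262 and 401 CPM on day 1 and 132 and 185 CPM on day 14. In CX3CR1+ macrophages it was 160 and 185 CPM on day 1 and 9.05 and 15.7 CPM on day 14. On day 14 the CD9+ macrophages held the 2 highest libraries by a wide margin. In the F4/80- gate it was 23.4 and 22.8 CPM on day 1 and 3.65 and 4.85 CPM (49 and 58 counts) on day 14. Neutrophils held 60.5 and 60.9 CPM on day 1 and 3.89 and 2.96 CPM (33 and 29 counts) on day 14. The fall was smallest in CD9+ macrophages, at 2.09-fold (log2 fold change -1.07, SE 0.23, adjusted p = 0.00555), and this call was lost without day 1 replicate 2 (-0.73, adjusted p = 0.0385) or day 14 replicate 1 (-0.88, adjusted p = 0.0718) of that population, when only the compared groups were fitted (adjusted p = 0.0877), and when libraries were scaled by their size alone (-0.88). Ecm1 fell 14.0-fold in CX3CR1+ macrophages, 5.45-fold in F4/80- myeloid cells and 17.8-fold in neutrophils, with adjusted p of 4.7e-07, 0.000116 and 1.64e-07.

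Thbs1 encodes thrombospondin-1, which activates latent TGF-beta, binds CD36 and CD47 and is stored in platelets. In CD9+ macrophages its level was 5300 and 10503 CPM on day 1 and 872 and 969 CPM on day 14. In CX3CR1+ macrophages it was 4193 and 5878 CPM on day 1 and 1088 and 1131 CPM on day 14. The 2 day 1 libraries of CD9+ macrophages lay farther apart than the replicates of any other group for this gene. The F4/80- gate held 694 and 726 CPM on day 1 and 93.0 and 119 CPM on day 14. Neutrophils held 6685 and 8460 CPM on day 1 and 7452 and 6844 CPM on day 14, with overlapping groups. Thbs1 fell 8.59-fold in CD9+ macrophages (log2 fold change -3.10, SE 0.27, adjusted p = 6.11e-06), 4.54-fold in CX3CR1+ macrophages (-2.18, SE 0.26, adjusted p = 7.07e-05) and 6.71-fold in F4/80- myeloid cells (-2.75, SE 0.27, adjusted p = 3.22e-05). In neutrophils the 95% interval of the log2 fold change was -0.62 to 0.46. The platelet chemokine genes moved as well. Pf4 was at 91.4 and 145 CPM in CD9+ macrophages on day 1 and 39.3 and 32.7 CPM on day 14, and at most 3.17 CPM in neutrophils. The 13 platelet and megakaryocyte markers in the table summed to 182 to 240 CPM in CD9+ macrophages on day 1 and 109 to 112 CPM on day 14, and to 9.90 to 23.6 CPM in neutrophils, and their part in the level of Thbs1 in macrophages was not tested.

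Tgfbi encodes an adhesive matrix protein induced by TGF-beta that binds collagens and integrins. Its level in CD9+ macrophages was 3053 and 3484 CPM on day 1 and 589 and 747 CPM on day 14. In CX3CR1+ macrophages it was 4247 and 4196 CPM on day 1 and 1154 and 1222 CPM on day 14. On both days the CX3CR1+ libraries lay above the CD9+ libraries. F4/80- myeloid cells held 578 and 446 CPM on day 1 and 234 and 212 CPM on day 14. Neutrophils held 1347 and 1033 CPM on day 1 and 508 and 509 CPM on day 14. Tgfbi was one of the 4 members that fell in every population, with Spp1, Ecm1 and Vcan. The fall was 4.89-fold in CD9+ macrophages (log2 fold change -2.29, SE 0.17, adjusted p = 1.67e-06) and 3.55-fold in CX3CR1+ macrophages (-1.83, SE 0.17, adjusted p = 6.83e-06). It was 2.29-fold in F4/80- myeloid cells and 2.34-fold in neutrophils, with adjusted p of 0.000621 and 7.9e-05.

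Vcan encodes versican, a large chondroitin sulfate proteoglycan that binds hyaluronan in provisional matrix. In CX3CR1+ macrophages its level was 1688 and 1931 CPM on day 1 and 502 and 455 CPM on day 14. In CD9+ macrophages it was 944 and 1070 CPM on day 1 and 69.6 and 83.3 CPM on day 14. CX3CR1+ libraries were the highest on both days. The F4/80- cells held 301 and 263 CPM on day 1 and 28.0 and 23.3 CPM on day 14. Neutrophils held 77.6 and 60.3 CPM on day 1 and 6.36 and 2.25 CPM (54 and 22 counts) on day 14. Vcan fell 13.2-fold in CD9+ macrophages (log2 fold change -3.72, SE 0.25, adjusted p = 5.13e-07) and 3.78-fold in CX3CR1+ macrophages (-1.92, SE 0.23, adjusted p = 5.77e-05). It fell 10.97-fold in F4/80- myeloid cells and 16.4-fold in neutrophils, with adjusted p of 1.54e-06 and 1.51e-07. In neutrophils the log2 fold change of -4.03 (SE 0.29) became -4.94 without day 14 replicate 1 and -3.44 without day 14 replicate 2, both calls being kept.

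The second question is how the 2 macrophage populations differed. On day 1 Spp1 alone was called, being 5.42-fold higher in CD9+ macrophages (log2 fold change 2.44, SE 0.23, adjusted p = 4.63e-06). Of all genes tested, 6.07% were called higher and 2.09% lower in CD9+ macrophages. Ecm1 was higher by 0.94 on the log2 scale (adjusted p = 0.0111) and Vcan differed by -0.85 (adjusted p = 0.0178), both under the fold threshold. Thbs1 differed by 0.65 with overlapping libraries (adjusted p = 0.0994). With 1 library left out, the difference of Thbs1 lay between 0.074 and 1.05 and that of Ecm1 between 0.60 and 1.21. The highest values, both over the fold threshold, came without CD9+ replicate 1 of day 1. Without CX3CR1+ replicate 2 of day 1, Ecm1 differed by 1.04. The 95% intervals of the log2 difference were -0.09 to 0.87 for Fn1, -0.72 to -0.01 for Tgfbi and -0.86 to 0.10 for F13a1. In these CD9+ libraries the neutrophil list summed to 19207 CPM in replicate 1 and 6028 CPM in replicate 2, and its part in the values was not tested.

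By day 14 the populations had moved apart in 5 of the 7 genes, in both directions, where 9.26% of all genes tested were called higher and 4.9% lower in CD9+ macrophages. Spp1 was 21.6-fold higher in CD9+ macrophages (log2 fold change 4.44, SE 0.26, adjusted p = 2.13e-08) and Ecm1 was 12.8-fold higher (3.68, SE 0.26, adjusted p = 1.12e-07). Vcan was 6.26-fold higher in CX3CR1+ macrophages (log2 fold change -2.65, SE 0.24, adjusted p = 9.56e-07), F13a1 was 3.79-fold higher there (-1.92, SE 0.23, adjusted p = 1.81e-05) and Fn1 was 2.63-fold higher there (-1.40, SE 0.23, adjusted p = 0.000274). Tgfbi passed the p threshold without reaching the fold (-0.83, adjusted p = 0.00166). For Thbs1 the 95% interval was -0.81 to 0.27. The eosinophil list stood at 7371 and 11925 CPM in these CD9+ libraries and at 133.8 and 91.4 CPM in the CX3CR1+ libraries, and its part in the differences was not tested.

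**Figure D4:**
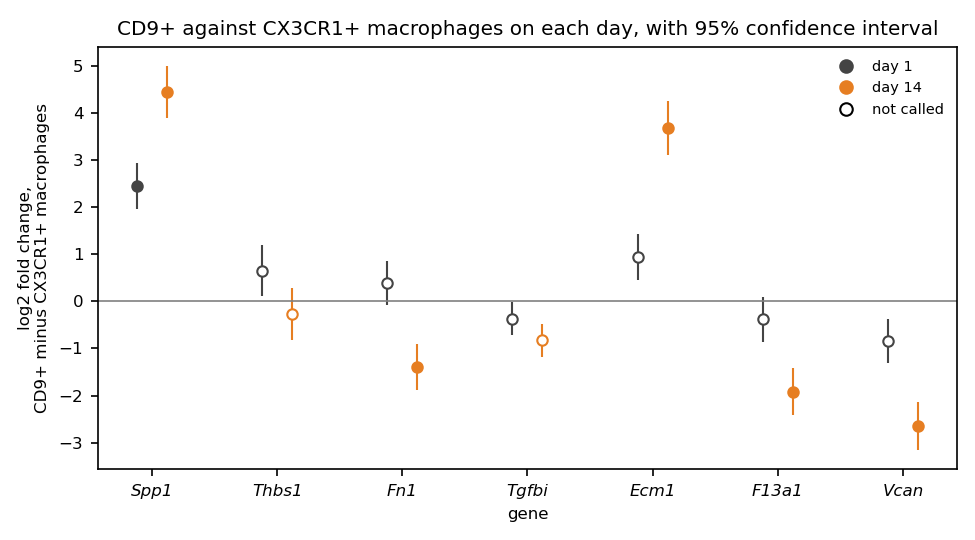
Log2 fold change of CD9+ over CX3CR1+ macrophages for each of the 7 genes on day 1 and on day 14, with bars for the 95% confidence interval of the edgeR fit. Spp1 moved from 2.44 to 4.44 and Ecm1 from 0.94 to 3.68, while Fn1 moved from 0.39 to -1.40 and Vcan from -0.85 to -2.65.

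The difference in the change over time was tested as an interaction, and 5 of the 7 genes passed it, where 2.31% of all genes tested were called. On the log2 scale the change in CD9+ macrophages minus that in CX3CR1+ macrophages was 1.998 for Spp1 (SE 0.32, adjusted p = 0.00377) and 2.74 for Ecm1 (SE 0.34, adjusted p = 0.000703), so both fell less in CD9+ macrophages. It was -1.79 for Fn1 (SE 0.32, adjusted p = 0.00656), -1.80 for Vcan (SE 0.32, adjusted p = 0.00626) and -1.54 for F13a1 (SE 0.32, adjusted p = 0.0161). These genes fell more in CD9+ macrophages, or fell there alone by the test. The call of F13a1 was lost without any of the 4 CX3CR1+ libraries, left out in turn, or without CD9+ replicate 2 of day 14 (adjusted p 0.0562 to 0.0964). Thbs1 (-0.92, adjusted p = 0.208) and Tgfbi (-0.46, adjusted p = 0.355) did not pass. With 1 library left out, the value of Thbs1 lay between -1.31 and -0.34, the former without CD9+ replicate 1 of day 1. The part of the changes of C1q genes between days, given above, was not tested.

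The F4/80- myeloid cells, sorted from the same tissue without the macrophage marker, held less of these genes. All 7 were called higher in CD9+ macrophages than in F4/80- myeloid cells on day 1, where 8.83% of all genes tested were higher, with log2 fold changes from 1.39 for F13a1 to 4.66 for Spp1. On day 14, 6 were higher, where 6.29% of all genes were, from 1.56 for Fn1 to 5.22 for Ecm1. F13a1 was the exception, with a 95% interval of -0.50 to 0.46. CX3CR1+ macrophages also exceeded F4/80- myeloid cells in all 7 genes on day 1, where 10.2% of all genes were higher. They exceeded them in 6 genes on day 14, where 11% of all genes were higher, with Vcan 18.6-fold higher (log2 fold change 4.22, adjusted p = 1.45e-08). Spp1 stood at 15.1 and 21.0 CPM in CX3CR1+ macrophages against 17.9 and 15.5 CPM in F4/80- myeloid cells on day 14, and these libraries overlapped. The neutrophil list stood at 35978 to 47308 CPM in the F4/80- libraries, and its part in the differences was not tested.

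Against neutrophils the direction depended on the gene, and a large share of all genes differed. On day 1 CD9+ macrophages exceeded neutrophils in 6 of the 7 genes, where 28.3% of all genes tested were higher, and Thbs1 differed by 0.06 (95% interval -0.48 to 0.60). On day 14 they exceeded neutrophils in 5 genes, where 29.3% of all genes were higher, while Thbs1 was 7.77-fold lower in CD9+ macrophages (log2 fold change -2.96, SE 0.27), where 19.9% were lower. CX3CR1+ macrophages exceeded neutrophils in 5 genes on each day, where 28% of all genes on day 1 and 27.6% on day 14 were higher, and were lower in Thbs1 on day 14 (log2 fold change -2.69, adjusted p = 4.3e-07), where 20.4% were. The largest of these differences was that of Fn1 on day 14, at 174-fold (log2 fold change 7.45, SE 0.30). F4/80- myeloid cells were higher than neutrophils in Fn1, F13a1 and Vcan and lower in the other 4 members on day 1, where 27.3% of all genes were higher and 21.5% lower. On day 14, Fn1, F13a1 and Vcan were again higher, where 27.8% of all genes were, and Thbs1 and Tgfbi were lower, where 20.3% were. Thbs1 was then 67.5-fold lower in F4/80- myeloid cells (log2 fold change -6.08, SE 0.32). With libraries scaled by size alone, Tgfbi (-0.69 on day 1 and -0.68 on day 14) and Ecm1 (-0.87 on day 1) kept this direction without reaching the fold threshold. Of 12 macrophage markers, 8 were called lower on day 14 in the neutrophil gate and none higher, where 10.5% of all genes tested were lower. Csf1r in this list was at 347 and 364 CPM on day 1 against 111 and 112 CPM on day 14. The sum of this list went the other way, from 8281 and 6212.5 CPM to 8934.5 and 9509 CPM, most of it Lyz2, which went from 5764 and 3327 to 8509 and 9093 CPM. The 7 monocyte markers summed to 2558 and 1593 CPM on day 1 and 3810 and 3930 CPM on day 14. Their part in the fall of Fn1, F13a1, Vcan, Spp1, Ecm1 and Tgfbi in neutrophils was not tested.

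The change over time was compared with the same interaction test between the other pairs of populations. Thbs1 changed differently in neutrophils than in each of the other populations, with log2 differences of -3.02 for CD9+ macrophages, -2.10 for CX3CR1+ macrophages and -2.66 for F4/80- myeloid cells, since it fell in these and not by the test in neutrophils. Fn1 and F13a1 fell less in CX3CR1+ macrophages than in neutrophils, by 3.25 and 3.08 on the log2 scale, and less in F4/80- myeloid cells than in neutrophils, by 3.31 and 2.95. Counted over all members, 6 of the 7 passed for CD9+ macrophages against neutrophils, where 8.2% of all genes tested were called, 4 for CX3CR1+ macrophages against neutrophils (8.85% of all genes) and 5 for F4/80- myeloid cells against neutrophils (7.63%). Against F4/80- myeloid cells, 3 passed for CD9+ macrophages (1.69%), namely Fn1, Tgfbi and F13a1, and 2 for CX3CR1+ macrophages (1.05%), namely Spp1 and Vcan. The 6 that passed for CD9+ macrophages against neutrophils were 2 when only these groups were fitted. Of the 3 against F4/80- myeloid cells none passed without F4/80- replicate 1 of day 14, and of the 2 for CX3CR1+ macrophages Vcan did not pass when any 1 of the 8 compared libraries was left out.

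The order of the populations by level was not set apart at every step. For Spp1 on day 1, CD9+ macrophages came first and F4/80- myeloid cells last, and neutrophils and CX3CR1+ macrophages between them did not differ beyond their spread (0.28 on the log2 scale, adjusted p = 0.263), their order turning when libraries were scaled by size alone (CX3CR1+ macrophages higher by 0.20). On day 14 the order was the same, and CX3CR1+ macrophages and F4/80- myeloid cells did not differ beyond their spread (0.11, adjusted p = 0.774). For Thbs1, CD9+ macrophages and neutrophils on day 1 (0.06, adjusted p = 0.838) and CX3CR1+ and CD9+ macrophages on day 14 (0.27, adjusted p = 0.492) were the neighbours closest to each other. For F13a1 on day 14 they were F4/80- myeloid cells and CD9+ macrophages (0.02, adjusted p = 0.968). For Ecm1 on day 14 they were F4/80- myeloid cells and neutrophils (0.31, adjusted p = 0.448). Every step in the order of Fn1 on day 14 and of Vcan on day 14 was called.

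Receptors of these proteins moved in several of the same comparisons. Of 17 tested integrins, syndecans and other matrix receptors, 3 fell and none rose in CD9+ macrophages, where Sdc4, a syndecan that binds fibronectin, went from a mean of 111 to 23.1 CPM (log2 fold change -2.26, adjusted p = 0.000351). Itgb5 fell by 1.59 and Itga5, the alpha chain of the fibronectin receptor, by 1.05 on the log2 scale. In CX3CR1+ macrophages 5 fell and 2 rose. Sdc4 fell by 3.001 on the log2 scale and Itgb3, the beta chain of the vitronectin receptor, rose from a mean of 5.56 to 35.8 CPM (2.70, adjusted p = 4.81e-06). In F4/80- myeloid cells 2 fell and 1 rose, and in neutrophils 6 fell and 1 rose, with Itga5 going from a mean of 217 to 10.9 CPM (-4.31, adjusted p = 3.3e-08). In the 4 populations 3.42%, 3.46%, 2.18% and 10.5% of all genes tested fell and 4.74%, 2.44%, 1.13% and 3.75% rose. The median log2 fold change of the list was -0.09, -0.40, 0.01 and -0.88 in the populations in that order. Between the macrophages, CD9+ cells were higher in 4 receptors and lower in 2 on day 1, and they were higher in 5 and lower in 2 by day 14, where 6.07% and 9.26% of all genes were higher and 2.09% and 4.9% lower. Cd36, a receptor of thrombospondin-1, was higher in CD9+ macrophages by 2.21 on the log2 scale on day 1 and by 2.90 on day 14.

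Fibrin is the other main component of provisional matrix. Of 14 tested genes of fibrin deposition and fibrinolysis, 6 fell and 2 rose in CD9+ macrophages, 5 fell and 2 rose in CX3CR1+ macrophages, 5 fell in F4/80- myeloid cells and 8 fell in neutrophils, with none higher in the last 2. In these 4 populations 3.42%, 3.46%, 2.18% and 10.5% of all genes tested fell and 4.74%, 2.44%, 1.13% and 3.75% rose. The medians were -0.90, -0.78, -0.60 and -2.41 on the log2 scale. F10, coagulation factor X, went from a mean of 440 to 97.0 CPM in CD9+ macrophages (log2 fold change -2.18, adjusted p = 1.64e-05). Tgm2, tissue transglutaminase, which like factor XIII cross-links matrix proteins, went from a mean of 410 to 21.8 CPM in CX3CR1+ macrophages (-4.24, adjusted p = 6.64e-07). CD9+ macrophages were higher than CX3CR1+ macrophages in 7 of the 14 genes on day 1 with none lower, and in 9 with 2 lower on day 14, where 6.07% and 9.26% of all genes were higher. Serpinb2, plasminogen activator inhibitor 2, was at a mean of 50.9 CPM in CD9+ and 0.367 CPM in CX3CR1+ macrophages on day 14.

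Among 17 tested proteases and inhibitors that act on these proteins, 5 fell and 3 rose in CD9+ macrophages, 5 fell and 1 rose in CX3CR1+ macrophages, and 8 fell with none higher in both F4/80- myeloid cells and neutrophils. The shares of all genes that fell were 3.42%, 3.46%, 2.18% and 10.5%, and 4.74%, 2.44%, 1.13% and 3.75% rose. The medians were -0.60, -0.51, -1.01 and -1.13 on the log2 scale. In CD9+ macrophages Mmp12, macrophage elastase, went from a mean of 4.19 to 52.2 CPM (log2 fold change 3.64, adjusted p = 0.0007) and the inhibitor Timp2 from 16.99 to 144 CPM (3.06, adjusted p = 2.85e-05), while the inhibitor Timp1 went from 16.2 to 1.72 CPM (-3.23, adjusted p = 0.00684). In CX3CR1+ macrophages the membrane protease gene Adam8 went from a mean of 299 to 27.6 CPM (-3.44, adjusted p = 2.42e-07). Against CX3CR1+ cells, CD9+ macrophages had 8 of the 17 higher on day 1 (1 lower) and 10 higher on day 14 (1 lower), where 6.07% and 9.26% of all genes were higher. Mmp9, which neutrophils also express, was at a mean of 133 CPM in CD9+ and 3.54 CPM in CX3CR1+ macrophages on day 1 (5.28, adjusted p = 1.74e-05), beside the neutrophil list values given above, whose part was not tested.

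The TGF-beta pathway is activated by thrombospondin-1 and induces Tgfbi. Of 16 tested genes, 2 rose and 1 fell in CD9+ macrophages, 1 rose and 1 fell in CX3CR1+ macrophages, 1 fell in F4/80- myeloid cells, and 1 rose and 4 fell in neutrophils. Of all genes tested, 4.74%, 2.44%, 1.13% and 3.75% rose and 3.42%, 3.46%, 2.18% and 10.5% fell in these populations. The medians were -0.20, -0.02, 0.11 and -0.14 on the log2 scale. Tgfbr3, betaglycan, rose in CD9+ macrophages from a mean of 1.48 to 8.80 CPM (log2 fold change 2.54, adjusted p = 0.00956) and in CX3CR1+ macrophages from 1.42 to 5.41 CPM (1.93, adjusted p = 0.0413). Inhba, which encodes the activin A subunit, was the 1 gene of the list called between the macrophages, higher in CD9+ macrophages by 3.31 on day 1 and by 4.42 on day 14 on the log2 scale.

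Other matrix genes were mostly low. Of 30 other matricellular and fibrillar glycoprotein genes on the list, 23 were in the table and 10 reached the filter. In CD9+ macrophages 2 were called. Tnc, tenascin-C, was near 0 on day 1 (mean 0.105 CPM) and at 4.06 CPM on day 14, and no fold is given for it, while Emilin2 fell from 893 to 324 CPM (-1.46, adjusted p = 0.000153). In CX3CR1+ macrophages only Sparc was called, at a mean of 0.367 CPM on day 1 and 4.79 CPM on day 14. Of these day 14 libraries, replicate 2 held 35.9 CPM of the collagen gene Col1a1 and 135 CPM of the fibroblast and osteoblast list, against 1.77 and 40.5 CPM in replicate 1, and their part in the level of Sparc was not tested. None was called in F4/80- myeloid cells and 3 fell in neutrophils. The medians were -0.13 in CD9+ macrophages, 0.35 in CX3CR1+ macrophages, 0.02 in F4/80- myeloid cells and -0.82 in neutrophils. Over all genes tested, 4.74%, 2.44%, 1.13% and 3.75% rose and 3.42%, 3.46%, 2.18% and 10.5% fell in the populations in that order. Of 8 tested proteoglycan and hyaluronan genes, 1 rose in CD9+ macrophages, 1 rose and 4 fell in CX3CR1+ macrophages, none was called in F4/80- myeloid cells and 3 fell in neutrophils, with medians of -0.02, -0.59, 0.0033 and -0.84. Chst11, a sulfotransferase that acts on chondroitin chains such as those of versican, went from a mean of 19.8 to 2.04 CPM in CX3CR1+ macrophages (-3.26, adjusted p = 1.78e-06). The 17 fibroblast and osteoblast markers in the table summed to 34.0 to 184 CPM, and Col1a1, the collagen gene that defines those cells, lay between 0.63 and 35.9 CPM in the 16 libraries.

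The profiles over the 16 libraries differed among the members. Log2 levels of Spp1 and Ecm1 correlated with r = 0.926, those of Fn1 and Vcan with r = 0.898 and those of F13a1 and Vcan with r = 0.863. Thbs1 correlated with Tgfbi (r = 0.701), Spp1 (0.602) and Ecm1 (0.443), less with Vcan (0.157), and negatively with Fn1 (-0.09) and F13a1 (-0.30). These are descriptions, since the libraries share populations and days. Among all 12031 genes tested, the 3 whose profiles were most like that of Fn1 were Tbc1d9, Plekho1 and Arhgef10l (r = 0.990, 0.986 and 0.986). For F13a1 they were Rassf4, Ms4a6c and Ccl9 (0.994, 0.992 and 0.991), and for Spp1 Pdpn, Cxcl1 and Sh3bgrl2 (0.955, 0.952 and 0.951). The profiles most like that of Ecm1 included those of Dab2 and Mmp14 (0.959 and 0.958). Vcan was most like Nsf, Casp6 and Ctsc (0.963, 0.959 and 0.959) and Thbs1 like Ap3d1, Arhgap24 and Bst1 (0.958, 0.950 and 0.946), and those most like Tgfbi included Ptgfrn and Tcf7l2 (0.951 and 0.949).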

How the data were processed

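Total RNA of sorted cells was made into SMART-Seq Stranded libraries and sequenced in pairs. The authors used Cutadapt for trimming and STAR for alignment to mm10, and deposited raw counts per gene over exons of a Gencode annotation. The deposited table keeps 20200 genes, the smallest with 17 counts in total. Its filter, and whether counting used strand, are not given in the sources used here. Genes with a group mean of at least 3 CPM (TMM) in at least 1 of 8 groups were tested, 12031 in all, in R 4.3.3 with edgeR 4.0.16 (glmQLFit, glmQLFTest), with a mean per group, no covariate and Benjamini-Hochberg adjustment. The 22 comparisons were 4 over time, 12 between populations and 6 interactions. For correlations, 2 was added as prior count before taking log2 CPM. Counts of 3 or fewer were taken as the floor, which covers counting error only because reads carry no molecular identifiers.

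The members and gene lists were chosen with earlier results of these data known. Besides the 7 members, the text names at most 3 called genes per list and comparison by size of change, the 3 most similar genes per member, markers and sorting genes; genes with a mean under 1 CPM in a group were passed over or are given without a fold, and some genes are not reported here. In simulated counts for the comparison of CD9+ macrophages over time, on 11973 genes, 196 of 200 changed genes (98%) and 4 unchanged genes were called. At a log2 change of 1.5, 61 of 65 (93.8%) were called. The simulation gave every gene and group the same biological coefficient of variation (0.178), unlike the real libraries, so these rates do not carry over to them. Alternatives were DESeq2 1.42.0, other scalings and filters, the compared groups alone, no fold threshold, a replicate block and leaving out each library.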

Additional observations from a re-analysis of the deposited data

Results flagged for a closer look

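The change over time differed between populations for several genes by the interaction term of the edgeR quasi-likelihood fit (adjusted p under 0.05 and a log2 difference of at least 1), and each value below is the first population's log2 change minus the second's. For CD9+ against CX3CR1+ macrophages, where 2.31% of all genes were called, it was 1.998 for Spp1, 2.74 for Ecm1, -1.79 for Fn1, -1.54 for F13a1 and -1.80 for Vcan. For CD9+ macrophages against F4/80- myeloid cells (1.69% of all genes), it was -1.85 for Fn1, -1.09 for Tgfbi and -1.41 for F13a1. None of these 3 was called without F4/80- replicate 1 of day 14. With libraries scaled by size alone, Tgfbi (-0.87, adjusted p = 0.0537) and F13a1 (-1.18, adjusted p = 0.0712) also lost their calls. Tgfbi lost its call when only the compared groups were fitted (adjusted p = 0.0977). Tgfbi and F13a1 also lost their calls without either F4/80- replicate 2 (adjusted p 0.0756 to 0.132) or CD9+ replicate 1 of day 14 (0.124 and 0.0694), F13a1 without F4/80- replicate 1 of day 1 (0.129) or CD9+ replicate 2 of day 14 (0.135), and Tgfbi without CD9+ replicate 2 of day 1 (-0.99). For CD9+ macrophages against neutrophils (8.2% of all genes), it was 1.46 for Spp1, -3.02 for Thbs1, 1.46 for Fn1, -1.06 for Tgfbi, 3.09 for Ecm1 and 1.54 for F13a1. Fn1 lost its call without CD9+ or neutrophil replicate 2 of day 14 (adjusted p 0.0518 and 0.0508), and Spp1 fell just under the fold threshold without the former (1.00). Tgfbi fell under it without CD9+ replicate 2 of day 1 (-0.97), neutrophil replicate 2 of day 1 (-0.89) or CD9+ replicate 1 of day 14 (-0.92). For CX3CR1+ macrophages against F4/80- myeloid cells (1.05% of all genes), it was -2.11 for Spp1 and 1.54 for Vcan, and the call of Vcan was lost when any 1 of these 8 libraries was left out (adjusted p 0.0868 to 0.226). For CX3CR1+ macrophages against neutrophils (8.85% of all genes), it was -2.10 for Thbs1, 3.25 for Fn1, 3.08 for F13a1 and 2.11 for Vcan, the last becoming 3.02 without neutrophil replicate 1 and 1.52 without neutrophil replicate 2 of day 14. For F4/80- myeloid cells against neutrophils (7.63% of all genes), it was 1.57 for Spp1, -2.66 for Thbs1, 3.31 for Fn1, 1.71 for Ecm1 and 2.95 for F13a1. Ecm1 lost its call without replicate 2 of day 14 of either population (adjusted p 0.0916 and 0.106).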

How the results depend on the processing

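Over 154 results for single genes and 1862 alternatives, 1767 kept their direction and side of the threshold, 48 lost a call, 23 gained one and 24 changed sign, none of the last having been called. Scaling by library size alone moved the median of all genes by 0.317 to 0.567 (log2) in the 6 comparisons of populations with neutrophils, and the higher share of calls from 55.0% to 59.5% up to 68.2% to 78.2%. The number of members called between CD9+ and CX3CR1+ macrophages on day 1 went from 1 to 2 with library size alone and to 3 without a fold threshold, and lay between 1 and 3 with 1 library left out. For the change over time it went from 6 to 2 for CD9+ macrophages against neutrophils when only these groups were fitted, from 3 to between 0 and 4 against F4/80- myeloid cells with 1 library left out, and from 2 to 1 for CX3CR1+ macrophages against F4/80- myeloid cells in each such fit. Signs changed for Spp1 in CX3CR1+ macrophages against neutrophils on day 1 (0.20) and in the change over time of CD9+ macrophages against F4/80- myeloid cells (0.11) with library size alone, for Thbs1 in CD9+ macrophages against neutrophils on day 1 with DESeq2 (-0.0074), and for F13a1 in CD9+ macrophages against F4/80- myeloid cells on day 14 with the compared groups alone (0.015). Scaling by library size alone leaves out the TMM factors, which were 0.77 to 0.802 in the neutrophil libraries and 0.919 to 1.148 in the others. The cause of the changes of sign was not tested.

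With 1 library left out, the values that changed sign ranged as follows. Over time, Fn1 (-0.11 to 0.021) and F13a1 (-0.10 to 0.18) in F4/80- myeloid cells and Thbs1 in neutrophils (-0.24 to 0.10) did so. Between populations, these were Thbs1 in CD9+ macrophages against neutrophils on day 1 (-0.51 to 0.48), F13a1 in CD9+ macrophages (-0.16 to 0.13) and Spp1 in CX3CR1+ macrophages (-0.15 to 0.32) against F4/80- myeloid cells on day 14. In the change over time, they were Spp1 (-0.57 to 0.22) and Thbs1 (-0.77 to 0.22) for CD9+ macrophages against F4/80- myeloid cells, Vcan for CD9+ macrophages against neutrophils (-0.28 to 1.22), F13a1 for CX3CR1+ macrophages against F4/80- myeloid cells (-0.029 to 0.24), Ecm1 for CX3CR1+ macrophages against neutrophils (-0.10 to 0.66), and Tgfbi (-0.18 to 0.22) and Vcan (-0.017 to 1.48) for F4/80- myeloid cells against neutrophils. Leaving out a library leaves 1 in its group, assumed to vary like the others.

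Libraries of a day that share a replicate number correlated in their deviations by 0.0118 to 0.141, and the main fit did not pair them. The paper pooled mice for each sort, so populations of a day may come from the same pools. With 2 libraries per group, low correlations cannot show that they do not. A replicate block within each day kept 152 of the 154 results. It added calls for the change over time of Ecm1 in CD9+ macrophages (1.39, adjusted p = 0.0231) and in CX3CR1+ macrophages (-1.38, adjusted p = 0.0446), both against F4/80- myeloid cells, which moved the members called from 3 to 4 and from 2 to 3. DESeq2 added the same calls of Ecm1 (adjusted p = 0.011 and 0.022). The former was also called with libraries scaled by size alone (adjusted p = 0.018), and the latter with only the compared groups fitted (adjusted p = 0.0148).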
